A study of Homo sapiens with 8 samples.

Results

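The genes described are 48 listed genes that act in mitosis, the phase in which a cell separates its copied chromosomes. They were chosen by symbol and cover the mitotic kinases and cyclins, the kinetochore, the spindle and its checkpoint, anaphase and cytokinesis, together with the factors FOXM1 and MYBL2. The array table gave a value for 47 of them, out of 18417 genes measured. CENPA, the centromeric histone H3 variant, is matched here to a transcript cluster that carries several symbols and was not analysed. Each gene is represented by 1 transcript cluster, the brightest over all arrays, and 46 of the 47 have no other cluster with a single symbol. KIF4A is also named on a cluster that carries several symbols, which was not analysed. BIRC5 has 2 clusters.

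The cells were ZR-75-1, a human breast cancer line of luminal type that expresses the estrogen receptor, and total RNA was hybridized to 8 Affymetrix arrays. The 4 lines were parental cells with no treatment, cells with an shRNA against GFP (shGFP, the control), and shEI24 clone 1 and shEI24 clone 2, both with an shRNA against EI24, an endoplasmic reticulum protein. Each line had 2 arrays, called replicates 1 and 2 here after the last number in their labels. The first number in the shEI24 labels was read as that of the clone. All cells were grown in the same medium without added compounds. The clones are single stable lines described as independent, and whether both arrays of a line were made from different cultures is not stated. The p-values therefore rest on the array-to-array spread, and this can be purely technical.

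The values are log2 intensities. A log2 difference of 1 is a 2-fold difference, and the call used throughout is an adjusted p under 0.05 from limma over all 18417 genes. EI24, the targeted gene, had log2 levels of 12.08 and 12.09 in parental cells, 11.97 and 11.91 in shGFP, 8.64 and 8.43 in clone 1, and 9.25 and 9.19 in clone 2. The markers of the labelled cell type did not fully hold in the clones: all 9 luminal epithelial markers, ESR1 and CDH1 among them, were lower than in shGFP (median log2 difference -3.97). Their mean log2 level was 8.42 to 8.78 in the shEI24 arrays and 12.01 to 12.07 in the control arrays. The keratins fell least, and KRT8 (11.76 to 12.08) and KRT18 (11.43 to 11.77) stayed bright in the shEI24 arrays. KRT19 differed from shGFP by -2.67 in clone 1 and by -0.43 in clone 2. All 8 mesenchymal markers were higher than in shGFP, with mean levels of 9.88 to 10.08 against 6.38 to 6.56. The rise was uneven: CDH2 differed by 0.33 and SPARC by 0.24, where the median log2 difference of the list was 4.68. SPARC did not pass in clone 1 (adjusted p = 0.0684), in clone 2 (adjusted p = 0.0573) or against parental cells (adjusted p = 0.0676). Of 9 fibroblast markers 1 was higher (PDGFRA, log2 difference 0.28), and the mean level of the list was 6.12 to 6.32 against 5.98 to 6.11. These marker levels moved with every difference between the clones and the controls given here, and their part in those differences was not tested.

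Most genes of mitosis are transcribed in waves, late in S phase and in G2, and many of their proteins are degraded as cells leave mitosis. Cdk1 with cyclins A and B drives entry, the spindle checkpoint holds the anaphase-promoting complex until every kinetochore is attached to microtubules, and separase then cuts the cohesin that joins sister chromatids. MYBL2, bound to the MuvB complex, and FOXM1 activate many of these genes through a promoter element called the CHR (cell cycle genes homology region). CCAAT boxes, which bind NF-Y, are a separate promoter element. In these bulk samples, fewer cells in G2 and mitosis cannot be told apart from less RNA per cell.

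The promoters of 5 members that fell and of 2 that rose are shown because these elements can be read in them. Each run holds the 150 bases before the annotated start in RefSeq (GRCh38.p14), 5′ to 3′ on the strand of the gene, and capitals mark every match to the CHR, searched as the motifs TTTGAA and TTCGAA, and to the CCAAT box, on either strand, so that the capital runs ATTGG are CCAAT boxes of the opposite strand. The coordinates are chr5:163460482-163460631 on the plus strand for HMMR, chr2:168890431-168890580 on the minus strand for SPC25, chr12:53268149-53268298 on the plus strand for ESPL1, chr15:90994536-90994685 on the minus strand for PRC1, chr16:23678739-23678888 on the plus strand for PLK1, chr1:43358831-43358980 on the plus strand for CDC20, and chr7:36389712-36389861 on the plus strand for ANLN.
HMMR: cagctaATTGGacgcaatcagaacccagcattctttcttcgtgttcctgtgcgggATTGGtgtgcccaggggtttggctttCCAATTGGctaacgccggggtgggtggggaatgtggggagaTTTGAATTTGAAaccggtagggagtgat
SPC25: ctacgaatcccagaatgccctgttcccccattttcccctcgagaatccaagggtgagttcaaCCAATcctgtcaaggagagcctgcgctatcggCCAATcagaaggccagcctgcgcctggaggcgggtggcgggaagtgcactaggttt
ESPL1: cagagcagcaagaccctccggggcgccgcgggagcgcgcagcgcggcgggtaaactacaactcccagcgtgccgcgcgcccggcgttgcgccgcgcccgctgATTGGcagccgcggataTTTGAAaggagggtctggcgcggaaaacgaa
PRC1: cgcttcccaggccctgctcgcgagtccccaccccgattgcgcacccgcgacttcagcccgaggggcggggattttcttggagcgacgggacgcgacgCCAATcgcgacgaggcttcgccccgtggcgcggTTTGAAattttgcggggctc
PLK1: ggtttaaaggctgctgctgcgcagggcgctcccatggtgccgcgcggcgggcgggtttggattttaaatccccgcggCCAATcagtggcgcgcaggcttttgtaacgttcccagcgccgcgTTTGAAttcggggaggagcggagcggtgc
CDC20: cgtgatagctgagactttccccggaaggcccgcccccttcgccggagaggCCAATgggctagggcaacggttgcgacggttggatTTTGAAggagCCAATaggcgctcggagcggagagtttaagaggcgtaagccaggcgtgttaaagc
ANLN: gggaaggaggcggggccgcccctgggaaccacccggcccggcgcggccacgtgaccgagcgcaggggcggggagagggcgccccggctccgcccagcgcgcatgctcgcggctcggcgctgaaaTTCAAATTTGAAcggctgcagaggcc

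In the promoter of HMMR 2 adjoining TTTGAA matches began at -28 and -22, counted with the base before the start as -1, and 4 of its 5 CCAAT matches lie in the run shown. PLK1, PRC1 and ESPL1 each held a CHR match at -29, -20 and -31 and a CCAAT match further upstream, at -73, -53 and -48. SPC25 held CCAAT matches at -88 and -56. Of its CHR matches that at -3 runs across the start, and that at -247 lies upstream of the run shown. CDC20, which rose, held a CHR match at -65 between CCAAT matches at -100 and -55, and another CHR match at -178, upstream of the run. ANLN, which also rose, held CHR matches at -26 and -20 and no CCAAT. The promoter of MYBL2 held no match to either. A window of 300 bases, 250 before and 50 after the start, was given for 40 of the 47 members, and was missing for AURKA, TTK, BUB3, BIRC5, TPX2, UBE2C and FOXM1. A CHR match lay in 26 of these 40 windows (65.0%), against 16.6% of 27305 promoter windows. CCAAT was found in 29 of 40 (72.5%, against 35.7%), and both in 22 (55.0%, against 6.58%). A CHR and a CCAAT match overlapped in CDCA8 and MKI67, and in HMMR the CCAAT matches at -69 and -66 overlap on opposite strands. Among the 34 lower members with a window 22 held a CHR match, as did 2 of the 4 that rose. The members are genes of 1 phase, so these shares describe the list and not its response.

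**Figure D1:**
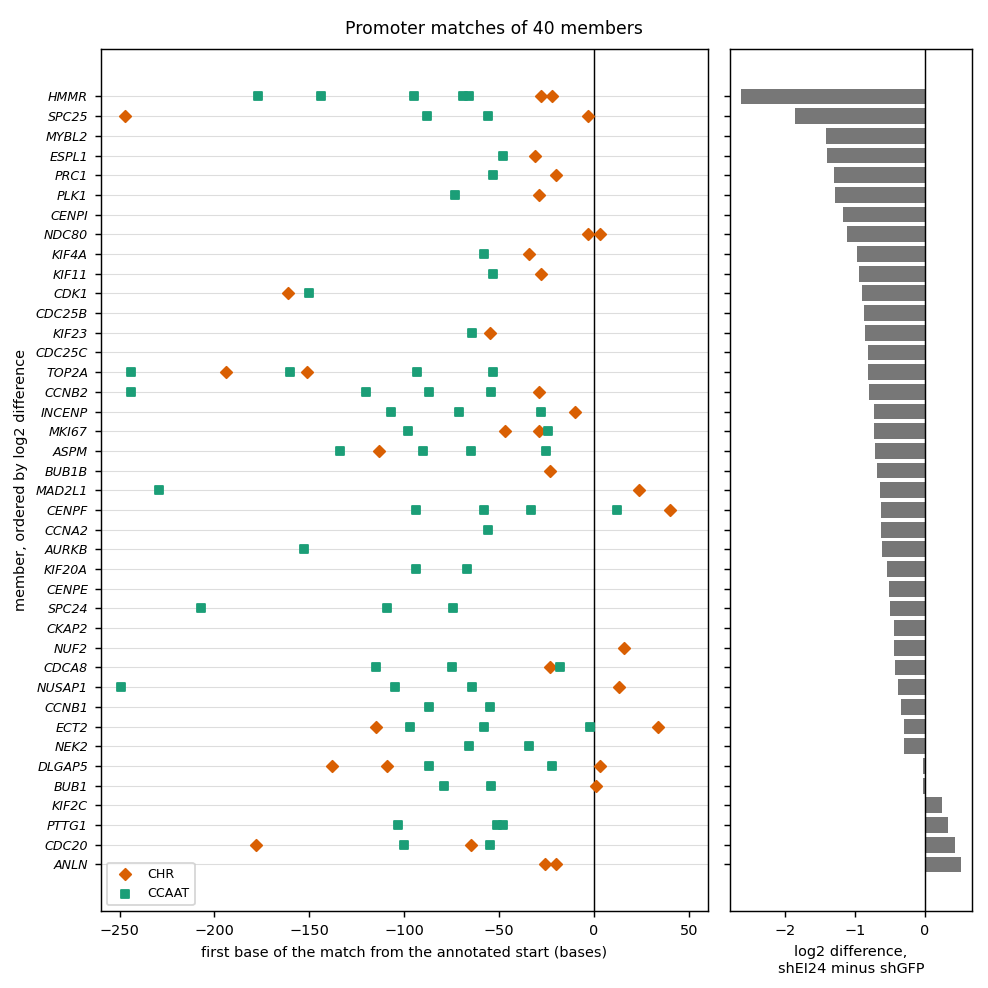
Left, position of each match to the CHR and the CCAAT box from the annotated start, in bases, for the 40 members with a promoter window, with 1 row per member ordered by log2 difference. Right, the log2 difference of the same member, mean of both shEI24 clones minus shGFP. Matches are found both among members that fell, with HMMR at one end, and among those that rose, with ANLN at the other.

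Against shGFP, 39 of the 47 members were lower in the shEI24 clones and 4 were higher, where 29.0% and 26.8% of all genes were. The median log2 difference of the members was -0.64 and that of all genes was 0.08. HMMR, SPC25, MYBL2, ESPL1 and PRC1 fell most. ANLN, CDC20, PTTG1 and KIF2C rose, and BUB1, BUB3, DLGAP5 and UBE2C did not pass the test. In 38 members every shEI24 array lay below every control array, parental cells included, which held for 26.9% of all genes. ANLN and BUB3 were the 2 members whose shEI24 arrays all lay above all control arrays, which held for 23.8%. With at least a 2-fold difference as well, 9 members were lower (9.08% of all genes): HMMR, SPC25, MYBL2, ESPL1, PRC1, PLK1, CENPI, FOXM1 and NDC80. The median level over the members was 10.14 and 9.95 in the arrays of clone 1, 9.68 and 9.51 in those of clone 2, 10.62 and 10.56 in shGFP, and 10.49 and 10.49 in parental cells. With each line counted as 1 replicate, and shGFP and parental cells pooled, 24 members were lower and 0 higher, against 18.6% and 14.9% of all genes.

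**Figure D2:**
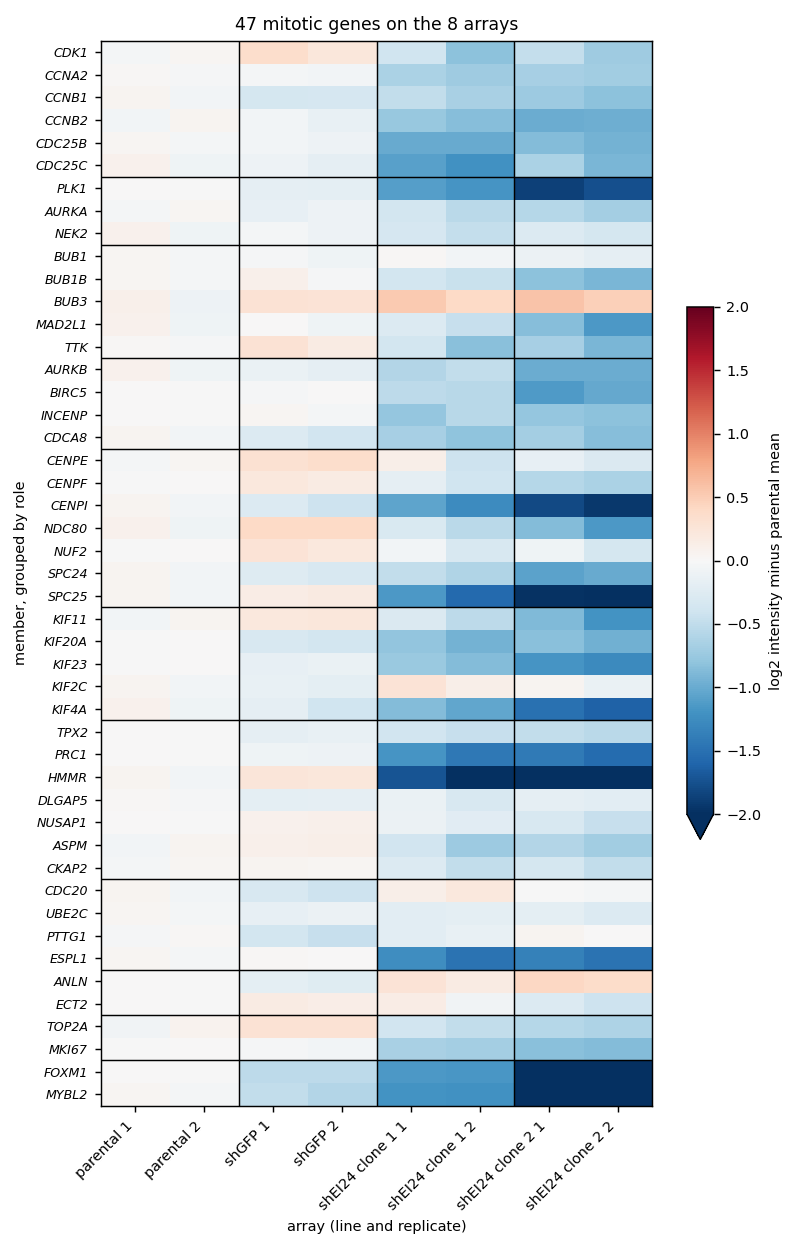
Log2 intensity of each of the 47 members on each of the 8 arrays, as the difference from the mean of the parental arrays; rows are members grouped by role, columns are arrays, and the colour scale ends at -2, so that lower values share its last colour. The clone columns are lower than the controls in most rows, and those of ANLN and BUB3 are higher.

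All 6 members that make up or switch on Cdk1 fell, with a median log2 difference of -0.80. CDK1, the kinase itself, had log2 levels of 10.13 and 10.20 in parental cells, 10.52 and 10.39 in shGFP, 9.76 and 9.35 in clone 1, and 9.68 and 9.46 in clone 2. Every clone array was below every control array, and the log2 difference from shGFP was -0.89 (SE 0.12, 1.86-fold, adjusted p = 0.000226). CCNB1, cyclin B1, was 11.11 and 11.00 in parental cells, 10.71 and 10.73 in shGFP, 10.56 and 10.41 in clone 1, and 10.33 and 10.24 in clone 2. It had the smallest fall of the 6, at -0.33 (SE 0.08, adjusted p = 0.00646), and its fall from parental cells was -0.67. In clone 1 alone CCNB1 gave -0.23 against shGFP and did not pass (adjusted p = 0.0676). For both clones it did not pass by the unpaired t-test named in the methods (adjusted p = 0.0727). The S and G2 phase cyclin CCNA2 fell by 0.63 on the log2 scale and the other B cyclin, CCNB2, by 0.79. CDC25B and CDC25C, the phosphatases that remove the inhibitory phosphates of Cdk1, fell by 0.88 and 0.82. None of the 6 passed the test between the clones. For CDK1 the interval of the clone difference ran from -0.34 to 0.31.

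The other mitotic kinases fell as well, PLK1 by far the most. PLK1, which acts from centrosome maturation to cytokinesis, had log2 levels of 12.64 and 12.64 in parental cells, 12.46 and 12.45 in shGFP, 11.54 and 11.46 in clone 1, and 10.77 and 10.88 in clone 2. The arrays of the controls, clone 1 and clone 2 did not overlap, and the log2 difference from shGFP was -1.29 (SE 0.07, 2.45-fold, adjusted p = 7.83e-07). AURKA, the kinase of the spindle poles, was 11.53 and 11.62 in parental cells, 11.42 and 11.47 in shGFP, 11.21 and 11.03 in clone 1, and 11.00 and 10.89 in clone 2. Its log2 difference was -0.41 (SE 0.08, adjusted p = 0.0026), and that of NEK2, a kinase of centrosome separation, was -0.29.

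Of the 5 members of the spindle assembly checkpoint 3 fell and 2 did not pass. BUB1B (BubR1), a subunit of the mitotic checkpoint complex, was 10.20 and 10.13 in parental cells, 10.27 and 10.14 in shGFP, 9.80 and 9.72 in clone 1, and 9.34 and 9.25 in clone 2. MAD2L1 (Mad2), which binds CDC20 in that complex, was 10.49 and 10.32, then 10.41 and 10.31, then 10.13 and 9.95, and 9.55 and 9.26, in the same order of lines. In both genes the arrays of clone 2 lay below those of clone 1, which lay below the controls. The log2 differences from shGFP were -0.68 (SE 0.08, adjusted p = 7.96e-05) for BUB1B and -0.64 (SE 0.11, adjusted p = 0.000792) for MAD2L1. TTK (Mps1), the kinase at the head of the checkpoint, fell by 0.92. BUB1, a kinase that recruits checkpoint proteins, gave -0.02 with a 95% interval of -0.19 to 0.15, so a change of more than 0.19 in either direction lies outside it. BUB3, which docks BUB1 and BUB1B on the kinetochore, gave 0.21 against shGFP (adjusted p = 0.0659) and 0.49 against parental cells (adjusted p = 0.0011).

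The 4 subunits of the chromosomal passenger complex, which corrects wrong attachments and later marks the division plane, all fell, by a median of -0.67. AURKB, its kinase, was 10.83 and 10.66 in parental cells, 10.62 and 10.56 in shGFP, 10.15 and 10.25 in clone 1, and 9.75 and 9.75 in clone 2. The log2 difference was -0.62 (SE 0.08, adjusted p = 0.000161). BIRC5 (survivin) gave -0.80, or -0.44 as the mean of its 2 clusters, the scaffold INCENP -0.72 and CDCA8 (borealin) -0.42.

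All 7 kinetochore members fell, with differences from -0.44 to -1.86. NDC80, SPC24, SPC25 and NUF2 are the 4 subunits of the Ndc80 complex, the main microtubule binder of the kinetochore, and their differences were unequal. SPC25 had log2 levels of 9.36 and 9.26 in parental cells, 9.46 and 9.50 in shGFP, 8.16 and 7.76 in clone 1, and 7.33 and 7.20 in clone 2. Every clone array lay more than 1 log2 unit below every control array, and the difference from shGFP was -1.86 (SE 0.11, 3.64-fold, adjusted p = 1.12e-06). NDC80 was 10.22 and 10.05 in parental cells, 10.54 and 10.54 in shGFP, 9.83 and 9.61 in clone 1, and 9.28 and 8.99 in clone 2. Its difference was -1.11 (SE 0.11, adjusted p = 2.33e-05). The 95% interval of -1.36 to -0.87 does not reach that of SPC25, -2.12 to -1.60. These intervals rest on the array-to-array spread within lines and leave out the spread between the clones. In clone 1 and clone 2 NDC80 gave -0.82 and -1.41, and SPC25 gave -1.51 and -2.21. SPC24 gave -0.50 and NUF2 -0.44, with intervals of -0.68 to -0.32 and -0.69 to -0.20. CENPI, of the inner kinetochore, was 10.02 and 9.90 in parental cells, 9.69 and 9.54 in shGFP, 8.91 and 8.69 in clone 1, and 8.15 and 8.03 in clone 2, a difference of -1.17 (SE 0.09, adjusted p = 6.49e-06). CENPF gave -0.63 and the kinesin CENPE -0.51. In CENPE 1 array of clone 1 (9.84) lay above both parental arrays (9.68 and 9.75), and the fall from parental cells of -0.18 did not pass (adjusted p = 0.275).

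Of the 5 kinesin motors 4 fell and KIF2C rose. KIF11 (Eg5), which pushes the spindle poles apart, was 10.39 and 10.49 in parental cells, 10.66 and 10.66 in shGFP, 10.14 and 9.91 in clone 1, and 9.56 and 9.25 in clone 2. Its log2 difference was -0.94 (SE 0.11, adjusted p = 7.02e-05). The chromokinesin KIF4A gave -0.97, KIF23 of the central spindle -0.86 and KIF20A, which brings the passenger complex there, -0.54. KIF2C (MCAK), which takes microtubules apart, was 9.19 and 9.09 in parental cells, 9.00 and 8.94 in shGFP, 9.41 and 9.26 in clone 1, and 9.20 and 9.01 in clone 2. The clone arrays overlapped with those of the controls, and the log2 difference of 0.25 from shGFP (SE 0.09, adjusted p = 0.037) did not pass without shGFP replicate 1 (adjusted p = 0.121) or without shGFP replicate 2 (adjusted p = 0.194), nor without either array labelled replicate 1 of a clone.

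Among 7 other spindle proteins 6 fell, and HMMR had the largest fall of all members. HMMR (RHAMM), which binds microtubules at the spindle and also hyaluronan, had log2 levels of 9.59 and 9.49 in parental cells, 9.78 and 9.77 in shGFP, 7.82 and 7.36 in clone 1, and 6.85 and 6.52 in clone 2. Its difference from shGFP was -2.64 (SE 0.14, 6.22-fold, adjusted p = 4.13e-07). PRC1, which bundles the microtubules of the central spindle, was 11.56 and 11.56 in parental cells, 11.48 and 11.46 in shGFP, 10.38 and 10.13 in clone 1, and 10.15 and 10.02 in clone 2. The clones lay close together, more than 1 log2 unit below the controls, and the difference was -1.30 (SE 0.09, adjusted p = 2.6e-06). The spindle pole protein ASPM gave -0.71, CKAP2 -0.45, the microtubule binder NUSAP1 -0.38 and TPX2, the activator of Aurora A, -0.31. DLGAP5 (HURP), a protein of kinetochore microtubules, gave -0.03 with an interval of -0.21 to 0.16.

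The 4 members of anaphase and mitotic exit went in both directions. ESPL1 is separase, the protease that cuts cohesin, and its log2 levels were 9.98 and 9.89 in parental cells, 9.96 and 9.94 in shGFP, 8.70 and 8.45 in clone 1, and 8.58 and 8.46 in clone 2. The difference was -1.40 (SE 0.09, 2.64-fold, adjusted p = 1.71e-06) with a clone difference of 0.06 (interval -0.19 to 0.30). PTTG1 is securin, the inhibitor of separase, and its levels were 9.92 and 9.96 in parental cells, 9.57 and 9.48 in shGFP, 9.73 and 9.80 in clone 1, and 9.99 and 9.94 in clone 2. It was higher in the clones than in shGFP by 0.34 (SE 0.07, adjusted p = 0.00371), and the difference from parental cells was -0.07 (adjusted p = 0.419). Without shGFP replicate 2 its adjusted p was 0.0601, and the count of members that rose was then 2. CDC20, the activator of the anaphase-promoting complex, was 11.29 and 11.17 in parental cells, 10.91 and 10.81 in shGFP, 11.35 and 11.44 in clone 1, and 11.23 and 11.19 in clone 2. The shGFP arrays were the low ones: the clones were higher than shGFP by 0.44 (SE 0.08, adjusted p = 0.00118) and differed from parental cells by 0.07 (adjusted p = 0.483). UBE2C, the ubiquitin-conjugating enzyme of the same complex, gave -0.08 against shGFP (adjusted p = 0.378) and -0.22 against parental cells (adjusted p = 0.029).

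Of the 2 cytokinesis members ANLN rose, and ECT2 was lower in the mean of the clones. ANLN (anillin), a scaffold of the contractile ring, was 11.48 and 11.45 in parental cells, 11.27 and 11.22 in shGFP, 11.74 and 11.62 in clone 1, and 11.89 and 11.83 in clone 2. It was the member with the largest rise, 0.53 (SE 0.07, 1.44-fold, adjusted p = 0.000269), and was also higher than parental cells, by 0.30 (adjusted p = 0.0071). ECT2, the exchange factor that activates RhoA at the division plane, gave -0.30 against shGFP, with clone arrays that overlapped with those of the controls. Its difference was -0.11 in clone 1 (adjusted p = 0.42) and -0.49 in clone 2 (adjusted p = 0.00284), and -0.15 for both clones against parental cells (adjusted p = 0.175). Without shGFP replicate 1 its adjusted p was 0.108 and without shGFP replicate 2 it was 0.0859.

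TOP2A and MKI67 act on and around mitotic chromosomes and are common proliferation markers. TOP2A, which untangles DNA, was 11.99 and 12.12 in parental cells, 12.35 and 12.34 in shGFP, 11.67 and 11.57 in clone 1, and 11.48 and 11.44 in clone 2. MKI67 (Ki-67), which coats the chromosomes, was 11.42 and 11.42, then 11.40 and 11.36, then 10.78 and 10.73, and 10.58 and 10.55. The clone arrays of both were below all control arrays, and the differences from shGFP were -0.81 (SE 0.08, adjusted p = 2.19e-05) and -0.72 (SE 0.07, adjusted p = 2.24e-05).

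Both transcription factors of the list fell, and their 4 lines stood in the same order, parental highest, then shGFP, clone 1 and clone 2. FOXM1 was 11.38 and 11.37 in parental cells, 10.85 and 10.85 in shGFP, 10.23 and 10.21 in clone 1, and 9.21 and 9.22 in clone 2. MYBL2 (B-Myb) was 12.05 and 11.97, then 11.51 and 11.42, then 10.82 and 10.79, and 9.22 and 9.39. No line overlapped with its neighbour for either gene. The differences from shGFP were -1.13 (SE 0.07, 2.2-fold, adjusted p = 1.08e-06) for FOXM1 and -1.41 (SE 0.08, 2.66-fold, adjusted p = 7.77e-07) for MYBL2. With each line counted as 1 replicate and, at the same time, shGFP and parental cells pooled, the differences were -1.40 for FOXM1 (adjusted p = 0.051) and -1.68 for MYBL2 (adjusted p = 0.0722).

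**Figure D3:**
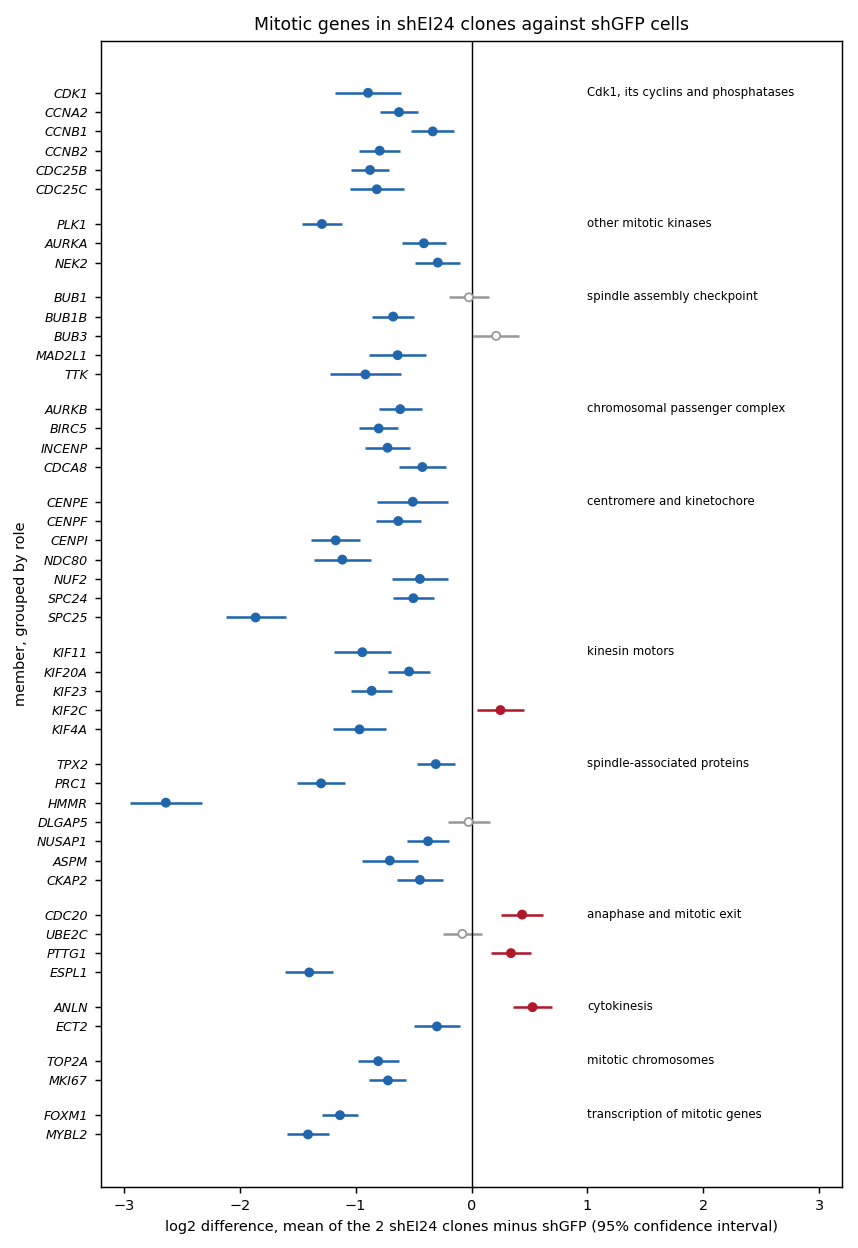
Log2 difference of each member, mean of both shEI24 clones minus shGFP, with its 95% confidence interval from limma, grouped by role; blue points are lower and red points higher at an adjusted p under 0.05, and open grey points did not pass. HMMR lies furthest to the left at -2.64 and ANLN furthest to the right at 0.53.

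**Figure D4:**
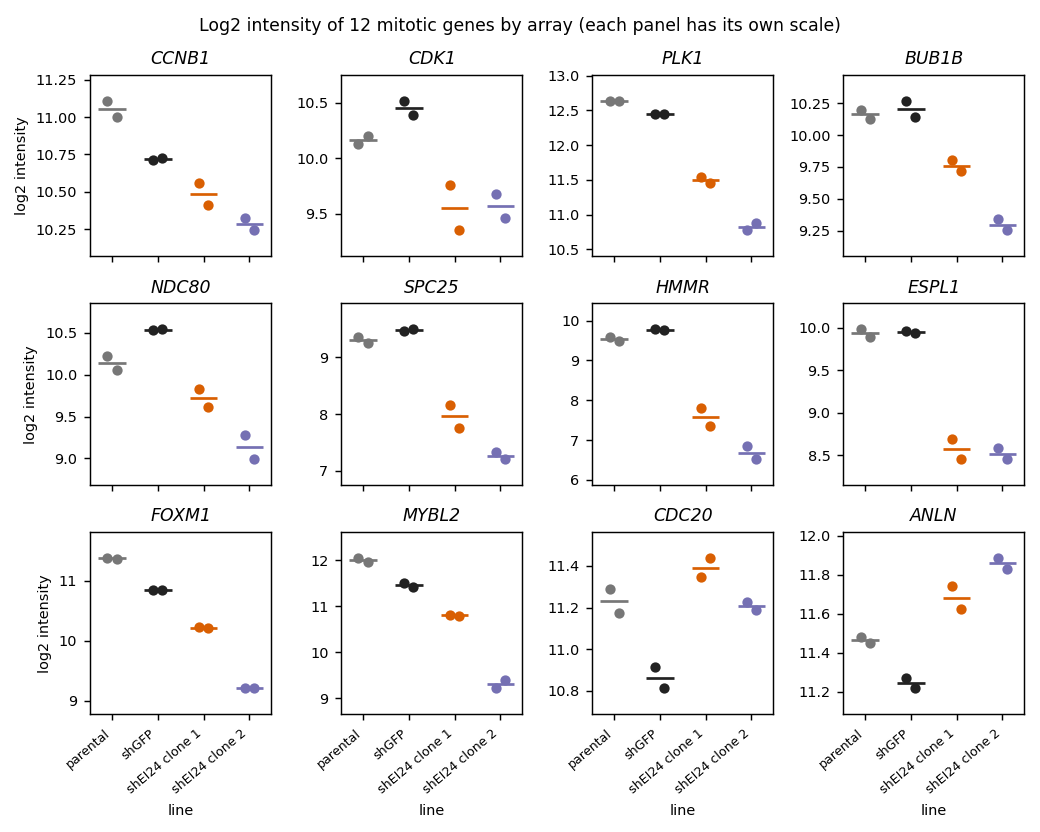
Log2 intensity of 12 members on each array, with a point for each array, a bar for the mean of each line and a scale of its own in each panel. In FOXM1, MYBL2 and PLK1 clone 2 lies well below clone 1, whereas the clones of ESPL1 and CDK1 overlap, and in CDC20 the shGFP arrays are the lowest.

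Both clones showed the fall when set against the same shGFP arrays. In clone 1 36 members were lower and 4 higher (26.6% and 23.0% of all genes), with a median log2 difference of -0.52. In clone 2 38 were lower and 3 higher (27.8% and 25.2%), with a median of -0.79. Set against parental cells, the clones were lower in 38 members and higher in 2, ANLN and BUB3 (30.8% and 25.1% of all genes). CENPE, NUF2 and ECT2 were lower than shGFP and did not pass against parental cells, and DLGAP5 and UBE2C were lower only than parental cells, at -0.21 (adjusted p = 0.048) and -0.22.

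The clones were then compared with each other. Of the 47 members 16 were higher in clone 1 than in clone 2 (9.29% of all genes) and 0 lower (5.88%), with 2 lower at an unadjusted p under 0.05. The median difference, clone 1 minus clone 2, was 0.18, against -0.02 over all genes. MYBL2 differed most, by 1.501 (adjusted p = 4.76e-05), followed by FOXM1 at 1.00 (adjusted p = 0.00014), HMMR at 0.91 and CENPI at 0.71. The kinetochore held 4 of the 16 (CENPI, SPC25, NDC80 and SPC24), the kinesins 3 (KIF11, KIF4A and KIF23), and both transcription factors were among them. PLK1, MAD2L1, BUB1B, BIRC5, AURKB and ECT2 also differed, by 0.39 to 0.67. CDC25C was the member with the largest difference the other way, -0.38 (interval -0.65 to -0.11, adjusted p = 0.067). The level of EI24 itself was lower in clone 1 than in clone 2. In every line the array called replicate 1 was higher than replicate 2 in most members. It was higher in 42 of 47 for clone 1, 41 for clone 2, and 33 for shGFP as well as for parental cells. Of all genes 48.1%, 52.0%, 53.8% and 54.1% were higher in it. The median gaps over the members were 0.14, 0.09, 0.03 and 0.04. The count of 16 was 9 without clone 1 replicate 1 and 8 without clone 2 replicate 2.

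The control lines were then compared. shGFP was lower than parental cells in 5 (7.44% of all genes): MYBL2 by -0.54, FOXM1 by -0.52, PTTG1 by -0.41, CDC20 by -0.37 and KIF20A by -0.35, the last at an adjusted p of 0.0496. It was higher in 0 (3.21%), with 3 at an unadjusted p under 0.05, and the median over the members was -0.07. When the model also held a replicate block, 10 members were lower and 3 higher. Of the members 0 were called lower without shGFP replicate 1 or without shGFP replicate 2, 1 without parental replicate 1 and 2 without parental replicate 2. These fits leave 1 array in a line, which is assumed to vary like the other lines, and the differences stayed of similar size, at -0.52 without either shGFP array for FOXM1, -0.59 and -0.50 for MYBL2, and -0.46 and -0.37 for PTTG1. For FOXM1 and MYBL2 the shGFP level lay between those of parental cells and clone 1, so the falls from parental cells were larger, -1.66 and -1.96.

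**Figure D5:**
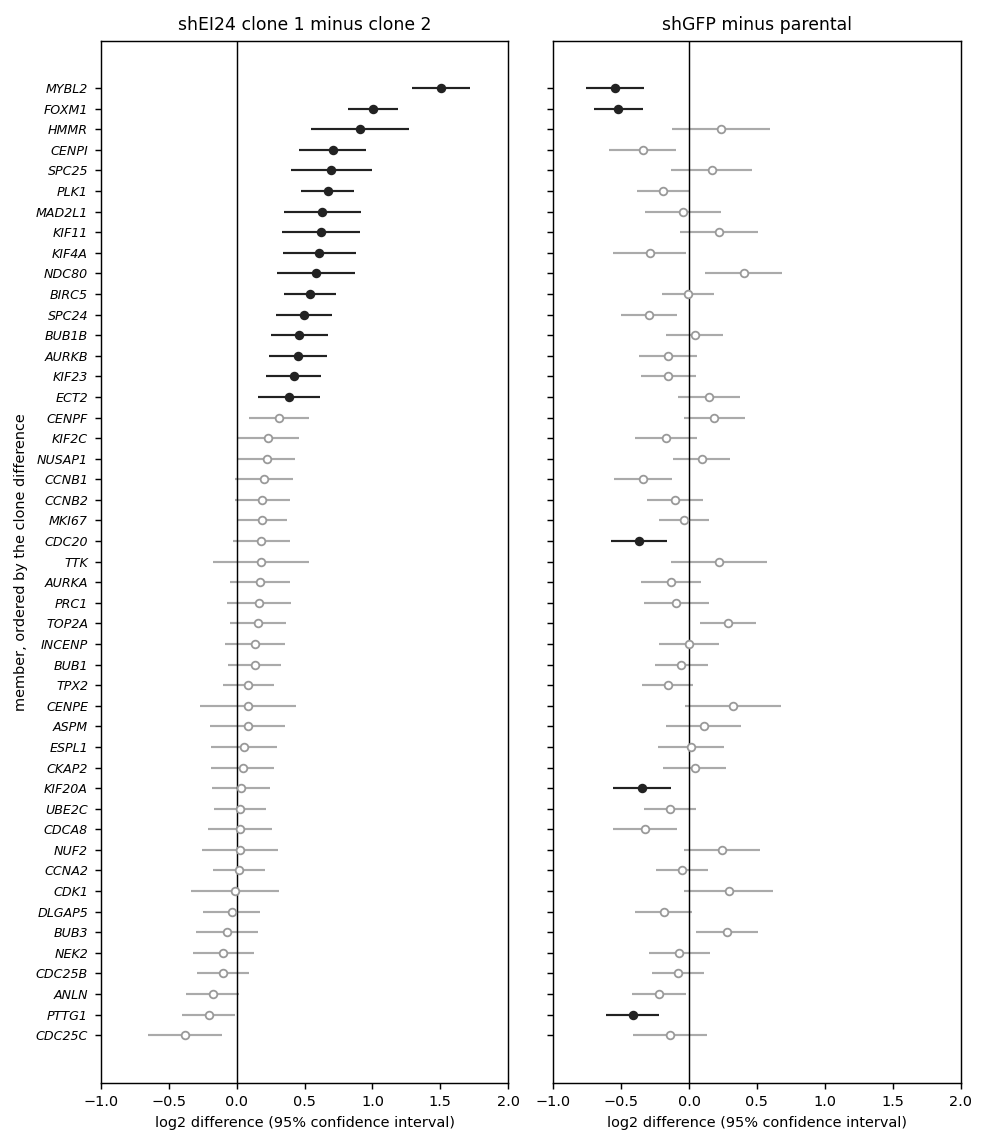
Log2 difference with its 95% confidence interval from limma for each member, shEI24 clone 1 minus clone 2 on the left and shGFP minus parental cells on the right, in the order of the clone difference; filled points passed at an adjusted p under 0.05. The 16 filled points on the left all lie above 0, up to MYBL2 at 1.501, and the 5 on the right all lie below it.

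In each further list of mitotic and cell cycle genes more were lower than shGFP than were higher, where 29.0% of all genes were lower and 26.8% higher. Of 27 other kinetochore genes 21 were lower than in shGFP and 2 higher, with a median of -0.55. SKA1 (-1.52), of the complex that tracks microtubule ends, and the centromere proteins CENPH (-1.45) and CENPN (-1.31) fell most, and ZW10 (0.51) and CENPT (0.29) rose. Of 20 condensin and cohesin genes 16 were lower and 0 higher, with 1 higher at an unadjusted p under 0.05. SGO1 (shugoshin, the protector of centromeric cohesin) gave -1.98, the cohesin subunit STAG1 -1.70 and the condensin II subunit NCAPG2 -1.64. Of 24 further genes of the spindle, centrosome and cytokinesis 16 were lower and 2 higher, led by the kinesins KIF22 (-1.40) and KIF15 (-1.24) and by PLK4 (-1.13), the kinase of centriole duplication, with KIF2A (0.65) and CKAP2L (0.36) as those that rose. KIF22 has 2 clusters, of which the brightest is given.

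Among 16 other regulators of mitotic entry 11 were lower and 3 higher. ENSA (-1.84) and ARPP19 (-1.57), the inhibitors of PP2A-B55 that Greatwall switches on, fell most, followed by PKMYT1 (-1.42), which holds Cdk1 inactive. ENSA has 3 clusters and ARPP19 has 2, and these values are those of the brightest only. CCNA1 (2.04), the other A-type cyclin, and the phosphatases CDC14A (1.73) and CDC14B (1.07) rose. The anaphase-promoting complex with its checkpoint partners moved less: 11 of 20 were lower and 3 higher, with a median of -0.26. ANAPC15 (-1.41), ANAPC16 (-1.37) and TRIP13 (-1.13) fell most, and CDC27 (0.73), ANAPC10 (0.43) and MAD1L1 (0.21) rose. Of 28 genes of E2F, Rb, the DREAM complex and G1 control 14 were lower and 6 higher (21.4%, near the share of all genes), with a median of -0.28. RBL2 (p130), a pocket protein of the DREAM repressor, gave -1.88, CDK4 -1.46 and SKP2 -1.22. CDK6 rose by 4.0, E2F7, a repressor of E2F targets, by 1.5 and CDKN1A (p21) by 1.14. Between the clones, where 9.29% of all genes were higher in clone 1 and 5.88% lower, 16 of the 27 other kinetochore genes were higher and 0 lower, as were 11 and 1 of the 20 condensin and cohesin genes. In the remaining lists 6 were higher and 2 lower of the 16 for mitotic entry, 3 and 0 of the 20 for the anaphase-promoting complex, 6 and 1 of the 24 for spindle, centrosome and cytokinesis, and 8 and 2 of the 28 for E2F and G1 control.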

How the data were processed

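The authors deposited log2 intensities, 1 value for each cluster on each array. GCOS and RMA are listed in the submitters' processing notes, with no version. RMA corrects background, equalizes the distributions of the arrays by quantiles and combines probes into clusters, so that a change of total RNA per cell cannot be seen and low values compress differences. A human exon 1.0 st array is given in the methods, while the identifiers matched the annotation of Human Gene 1.0 ST. Of 33297 clusters 19460 carried 1 symbol, and after 1043 second clusters were set aside 18417 genes remained. A mean was fitted for each of the 4 lines by lmFit and eBayes of limma 3.58.1 under R 4.3.3, with 4 residual degrees of freedom. Benjamini-Hochberg adjustment ran over all genes. The mean of the clones minus shGFP was the main comparison, and the procedure was run on simulated data. That simulation used independent noise without clone differences or replicate effects, so it does not show how the fit behaves under either. The number of arrays limits the precision. Values by array are given for the members with the largest changes in each comparison and for a set of well-known ones. Some genes of the other lists are not reported here. Members and lists were chosen with earlier results of these data known, and are described by counts and medians without a test of the list.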

Additional observations from a re-analysis of the deposited data

Results flagged for a closer look

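In 16 members the differences of the clones from the same shGFP arrays were unequal, by limma's test of clone 1 against clone 2 at an adjusted p under 0.05, and all were higher in clone 1. The log2 differences, clone 1 minus clone 2, were 1.501 for MYBL2, 1.00 for FOXM1, 0.91 for HMMR, 0.71 for CENPI, 0.70 for SPC25, 0.67 for PLK1, 0.63 for MAD2L1, 0.62 for KIF11. The others were 0.61 for KIF4A, 0.58 for NDC80, 0.54 for BIRC5, 0.50 for SPC24, 0.46 for BUB1B, 0.45 for AURKB, 0.42 for KIF23 and 0.39 for ECT2. Both arrays of clone 1 and both of clone 2 enter each value. Groups of 2 arrays were not tested for arrays that stand apart.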

How the results depend on the processing

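The members' median differences kept their sign and moved by less than the spread between arrays under every alternative that gives one. Of the 43 members called against shGFP 20 kept their call and direction in every alternative but the 2-fold threshold, as did 8 of 16 between the clones and 0 of 5 between shGFP and parental cells. The 4 members higher than shGFP became 2 with parental cells as the control (ANLN, and BUB3, which was not among the 4), 2 by the methods' unpaired test after adjustment, 0 with each line as 1 replicate (controls pooled) and 0 at 2-fold, and the 39 lower became 24 by the methods' test, 24 with each line as 1 replicate (controls pooled) and 9 at 2-fold. Leaving out 1 array gave 2 to 4 higher and 34 to 39 lower. Between the clones the 16 higher became 2 at 2-fold and 8 to 16 without an array, and the 0 lower became 1 with the replicate block, the trended robust variance model, a second quantile normalization, or the dimmest 0.25 of genes left out (0 to 1 without an array). Between shGFP and parental cells the 5 lower became 10 with the replicate block, 11 with the trended model, 3 with median centring and 0 at 2-fold, and 0 to 6 without an array. The 0 higher became 3 with the block, the trended model or second quantile normalization and 1 without the dimmest 0.25 of genes, and stayed at 0 without any 1 array. The main fit did not take the replicate numbers as pairs, so a difference shared by same-numbered arrays stayed in its array-to-array spread. Deviations of same-numbered arrays from their line means correlated at 0.248 to 0.587 over all genes. Signs turned for PTTG1 with parental cells as the control (-0.0742), and for members near 0: BUB1 (0.0440), DLGAP5 (0.0264) and UBE2C (0.0222) after second quantile normalization, DLGAP5 without clone 1 replicate 2 (0.0199, range over single arrays left out -0.0707 to 0.0199) and BUB1 without shGFP replicate 1 (0.00941, range -0.05455 to 0.00941). The causes were not tested.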
